A study of Mus musculus with 6 samples.

Results

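The 9 genes described here, *Trp63*, *Tfap2a*, *Tfap2c*, *Klf4*, *Klf5*, *Grhl1*, *Grhl2*, *Grhl3* and *Ovol1*, encode transcription factors of the epidermis, and they are 9 of the 56262 genes counted in leg muscle of mouse fetuses. They were chosen by name, with the difference between the genotypes in these samples already known, so their own differences are given below as a description and were not used as a test. The samples were 3 wild type (WT) and 3 *SYISL* KO leg muscles taken at embryonic day 18.5. *SYISL* is a muscle long noncoding RNA transcribed from within *Synpo2*, and the study used the comparison to ask what its loss changes in embryonic muscle. KO fetuses came from matings of KO mice and WT fetuses from matings of WT mice, so the genotype of the fetus and that of its mother cannot be told apart in these samples. The litter and sex of each fetus are not given in the sources used here, nor whether each sample was a single fetus, and p-values therefore measure only the spread between these samples.

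The epidermis is a stratified epithelium, in which dividing basal keratinocytes move outward, stop dividing and build the skin barrier shortly before birth. p63, the product of *Trp63*, is the master regulator of this epithelium and is most abundant in the basal layer. The AP-2 factors act with it in keratinocytes, KLF4 and the grainyhead-like factors drive the late steps that form the barrier, and OVOL1 accompanies the exit of cells from division. KLF4, KLF5 and AP-2α are not limited to epidermis, and they are also made in blood vessels, smooth muscle, gut or neural crest derivatives.

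The depth was 82054811 to 102233181 counts per sample, and a count of 0 allows a level of up to 0.0293 to 0.0366 CPM (counts scaled to a common library total), a limit that covers counting error only. *SYISL* has no symbol in the annotation used, so the deletion itself was not checked. Its host gene *Synpo2* ranged over 131 to 139 CPM in the WT libraries and 193 to 229 CPM in the KO libraries. Of 22071 genes tested with edgeR's quasi-likelihood test, a gene was called where its fold change exceeded 1.5 and its Benjamini-Hochberg adjusted p was below 0.05, which gave 8.39% of genes lower and 8.31% higher in KO. The label of the tissue was checked with 12 skeletal muscle markers, all of them detected, whose summed level was 18608 to 20770 CPM in WT and 39008 to 47013 CPM in KO. This check shows only that muscle was present. A list of 18 keratinocyte markers, described below, summed to 18844 to 27640 CPM in WT and 1019 to 1161 CPM in KO, so the WT libraries also held much RNA of skin genes.

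RefSeq start sites with a promoter sequence were at hand for 4 of the 9 genes. The windows below run from 250 bases before to 50 bases after the start and are shown because these members were lower in KO together, with *Grhl3* the one that differed most. Letters in capitals mark the AP-2 motif GCCNNNGGC, found at -82 to -74 of *Grhl1* and at -9 to -1 of *Klf4*. All sequences are written on the strand of the gene, from build GRCm38.p6, and the windows are chr4:135573583-135573882 (minus strand) for *Grhl3*, chr12:24572037-24572336 (plus strand) for *Grhl1* and chr4:55532426-55532725 (minus strand) for *Klf4*.
Grhl3: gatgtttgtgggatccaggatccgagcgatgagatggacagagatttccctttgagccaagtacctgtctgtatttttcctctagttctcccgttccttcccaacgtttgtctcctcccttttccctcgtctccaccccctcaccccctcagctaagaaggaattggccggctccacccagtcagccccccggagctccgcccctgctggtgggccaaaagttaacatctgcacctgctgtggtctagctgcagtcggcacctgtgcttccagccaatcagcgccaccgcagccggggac
Grhl1: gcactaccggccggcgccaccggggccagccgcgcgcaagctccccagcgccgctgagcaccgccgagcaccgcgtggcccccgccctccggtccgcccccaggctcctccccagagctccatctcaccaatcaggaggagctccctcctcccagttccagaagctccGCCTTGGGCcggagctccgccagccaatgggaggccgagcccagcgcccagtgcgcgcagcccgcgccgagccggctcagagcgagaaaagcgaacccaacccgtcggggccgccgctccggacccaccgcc
Klf4: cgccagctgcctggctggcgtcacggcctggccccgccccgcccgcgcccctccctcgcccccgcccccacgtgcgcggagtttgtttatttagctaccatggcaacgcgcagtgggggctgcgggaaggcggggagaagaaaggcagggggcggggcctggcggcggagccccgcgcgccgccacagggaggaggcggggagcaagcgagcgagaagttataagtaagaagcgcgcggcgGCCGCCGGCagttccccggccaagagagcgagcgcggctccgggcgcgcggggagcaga
Of 6 windows of the 4 genes, including 1 more of *Grhl1* and 2 of *Tfap2a*, these 2 held the AP-2 motif on either strand, against 16.7% of 32544 windows of all genes. None of the 6 windows held the grainyhead motif AACCNGTT, which 2.09% of all windows held. None held the p63 motif of 2 CATG cores 6 bases apart either, which 0.624% of all windows held. The KLF motif CCCCACCC was found in 10.05% of all windows and the OVOL motif CCGTTA in 2.76%, and in 0 of these 6. A match or its absence describes only the letters of these windows. The first *Grhl1* window and the *Klf4* window were rich in G and C, at 75.3% and 74.3%, and that of *Grhl3* less so, at 58.3%.

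Each of the 9 genes was lower in every KO sample than in any WT sample, and the size of the difference separated them into a group near 2-fold and a group of 8-fold or more. *Klf5*, *Tfap2c*, *Klf4*, *Trp63*, *Tfap2a* and *Grhl2* were 1.91 to 2.86-fold lower in KO. *Grhl1*, *Ovol1* and *Grhl3* were 8.45, 14.0 and 20.8-fold lower. All 9 met the call for lower genes, where 8.39% of all genes tested did, and all 9 had no overlap between the genotypes with KO lower, where 28.5% of all genes did. Since the genes were chosen with this contrast in view, both counts describe the choice. Their median log2 fold change was -1.44, against -0.0041 for all genes tested. In bulk tissue, fewer cells of a type in the sample and less RNA per cell cannot be told apart. The amount of skin in each leg muscle sample is not given in the sources used here, and its part in these values was not tested.

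**Figure D1:**
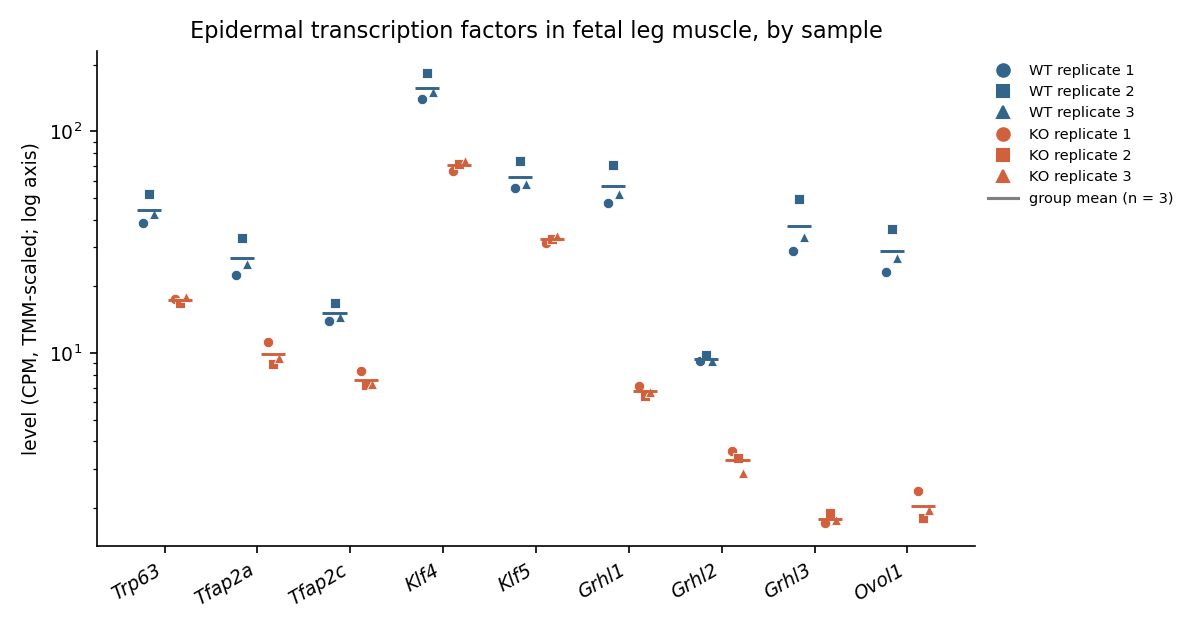
Level of each of the 9 genes in CPM on a log axis, with 1 point per sample (WT blue, KO orange; circles, squares and triangles are replicates 1, 2 and 3) and a bar at the mean of 3 samples. WT replicate 2 is the highest sample for each gene, and the gap between the genotypes is widest for *Grhl3* (29.0 to 49.5 CPM in WT, 1.71 to 1.91 CPM in KO).

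*Trp63* (ENSMUSG00000022510.14) spans 25683763 to 25892102 on chromosome 16 (mm10, plus strand). Its counts were 3656, 4294 and 4467 for the WT libraries and 1639, 1609 and 1740 for the KO libraries, which is 38.6, 52.0 and 42.3 CPM against 17.5, 16.9 and 17.9 CPM. The KO samples lay close together, with a spread of 1.06-fold between the highest and the lowest, and the WT samples were spread over 1.35-fold. The log2 fold change of KO over WT was -1.35 (standard error 0.0965). Gene counts cannot separate the long p63 isoforms from the N-terminally shortened form that predominates in keratinocytes. The 2 small genes annotated within *Trp63* had 0 counts in each sample.

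*Tfap2a* (ENSMUSG00000021359.16, chromosome 13, 40715302 to 40738376, minus strand) encodes AP-2α, a factor of surface ectoderm and neural crest. Its WT levels were 22.5, 32.9 and 25.1 CPM and its KO levels 11.2, 8.92 and 9.54 CPM (log2 fold change -1.44 ± 0.14, standard error). The highest KO sample was replicate 1, and it was still well under the lowest WT sample. Antisense genes overlap it, and the most counted of these, *Gm47061*, was counted 56, 63 and 79 times in the WT libraries and 35, 22 and 24 times in the KO libraries, few beside the 850 to 2719 counts of *Tfap2a*.

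*Tfap2c* (ENSMUSG00000028640.11, chromosome 2, 172549593 to 172558622, plus strand) encodes AP-2γ, which acts with AP-2α in keratinocytes. The WT levels were 14.0, 16.9 and 14.5 CPM and the KO levels 8.31, 7.21 and 7.27 CPM (log2 fold change -0.99 ± 0.090, standard error). Together with *Klf5* it showed the smallest difference of the 9, and its groups were 1.68-fold apart at their nearest samples. The other members of the AP-2 family stand in a list of relatives that was drawn up with earlier results of these samples known, so their p-values are not independent evidence. *Tfap2b* fell from 23.1 ± 3.72 to 5.66 ± 0.142 CPM (SD, n = 3 each; log2 fold change -2.03, edgeR adjusted p = 6.19e-07) and *Tfap2e* from 2.19 ± 0.0978 to 0.760 ± 0.203 CPM (-1.53, edgeR adjusted p = 7.69e-05). *Tfap2d* had at most 1 count in any sample and was not tested.

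Per length of exon, the makeup of the AP-2 family differed between the genotypes in *Tfap2b* and *Tfap2c* and much less in *Tfap2a*. *Tfap2c* was 30.1%, 27.5% and 29.2% of the summed RPKM (CPM per kilobase of exon) of the 4 tested AP-2 genes in WT and 38.1%, 39.3% and 38.7% in KO. *Tfap2b* was 25.2% to 25.8% in WT and 15.3% to 18.2% in KO. The share of *Tfap2a* was 38.1% ± 1.92 in WT and 37.7% ± 1.10 in KO (SD, n = 3 each), which overlapped.

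*Klf4* (ENSMUSG00000003032.8, chromosome 4, 55527143 to 55532466, minus strand) encodes a zinc finger factor needed for the skin barrier. It was the most abundant of the 9 per length in both genotypes, at 45.8, 60.0 and 49.3 RPKM in WT and 21.6, 23.5 and 24.1 RPKM in KO. In CPM this was 140, 183 and 150 against 66.0, 71.5 and 73.3, a log2 fold change of -1.17 (standard error 0.091). The lowest WT sample was 1.90-fold above the highest KO sample.

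*Klf5* (ENSMUSG00000005148.8, chromosome 14, 99298691 to 99315036, plus strand) encodes a relative of KLF4 that is found in dividing cells of many epithelia. The WT levels of 55.3, 73.7 and 57.8 CPM stood against 31.4, 32.7 and 33.6 CPM for the KO samples, the smallest difference of the 9 (log2 fold change -0.93, standard error 0.095). Its KO samples differed from each other by 1.07-fold. *Klf5* made up 18.4% to 19.1% of the summed RPKM of *Klf4* and *Klf5* in WT and 21.2% to 21.8% in KO, so the balance of this pair was close in both genotypes although the ranges did not overlap.

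*Grhl1* (ENSMUSG00000020656.16, chromosome 12, 24572283 to 24617391, plus strand) encodes a grainyhead-like factor that controls desmosomal cadherins. Its WT levels were 47.4, 70.9 and 52.1 CPM and its KO levels 7.13, 6.38 and 6.65 CPM (log2 fold change -3.08 ± 0.14, standard error). The nearest samples of the genotypes were 6.64-fold apart, which is far more than the spread among the WT samples.

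*Grhl2* (ENSMUSG00000022286.16, chromosome 15, 37233036 to 37363569, plus strand) encodes the family member of simple and embryonic epithelia and maintains E-cadherin and other junction genes. It was the least abundant of the 9 per length, at 1.07, 1.14 and 1.07 RPKM in WT and 0.420, 0.392 and 0.333 RPKM in KO. In CPM it stood at 9.18, 9.84 and 9.20 in WT, the most even of the 9 among the WT samples (coefficient of variation 3.98%), and at 3.62, 3.38 and 2.87 in KO, a log2 fold change of -1.52 (standard error 0.091). The antisense gene *Gm16136* (chromosome 15, 37231793 to 37233309, minus strand) spans its start and was counted 952, 954 and 1024 times in the WT libraries and 158, 145 and 144 times in the KO libraries, a log2 fold change of -2.74. *Grhl2* itself was counted 869, 813 and 971 times in the WT libraries and 339, 322 and 279 times in the KO libraries. The sources used here do not state whether the counting used strand, so reads of *Gm16136* and of the first bases of *Grhl2* cannot be told apart, and their part in the value of *Grhl2* was not tested.

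*Grhl3* (ENSMUSG00000037188.7, chromosome 4, 135541888 to 135573630, minus strand) encodes the family member that is required for the fetal skin barrier. Its counts were 2748, 4094 and 3522 for the WT libraries and 160, 182 and 172 for the KO libraries, or 29.0, 49.5 and 33.4 CPM against 1.71, 1.91 and 1.77 CPM. The log2 fold change of -4.38 (standard error 0.20) was the furthest from 0 among the 9. The WT samples were also the most spread of any member, with a coefficient of variation of 29.0%, while that of the KO samples was 5.79%.

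*Ovol1* (ENSMUSG00000024922.2, chromosome 19, 5549136 to 5560646, minus strand) encodes a zinc finger repressor switched on as keratinocytes leave the basal layer. Its WT levels were 23.2, 36.3 and 27.0 CPM and its KO levels 2.39, 1.82 and 1.95 CPM (log2 fold change -3.81 ± 0.18, standard error). The transcribed pseudogene *Gm31166* overlaps its end on the other strand, with 89 to 149 counts in WT and 139 to 151 in KO, against 173 to 224 counts of *Ovol1* in KO. Reads of that pseudogene could not be told apart from those of *Ovol1* where they overlap, and its own counts were not lower in KO.

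The order of the 9 genes per length differed between the genotypes. In WT, *Klf4* (51.7 ± 7.40 RPKM) was followed by *Grhl3* (13.4 ± 3.88), *Klf5* (12.0 ± 1.91), *Grhl1* (10.3 ± 2.25) and *Ovol1* (8.26 ± 1.93), and then by *Tfap2a* (5.48 ± 1.10), *Trp63* (5.28 ± 0.821), *Tfap2c* (4.11 ± 0.424) and *Grhl2* (1.09 ± 0.0435; SD, n = 3 each). From *Grhl3* down to *Trp63*, the samples of each gene overlapped those of the next in the order. In KO, *Klf5* (6.27 ± 0.209 RPKM) came second after *Klf4* (23.0 ± 1.26), and *Trp63*, *Tfap2c* and *Tfap2a* followed at 2.02 to 2.08 RPKM with overlapping samples. *Grhl3* (0.644 ± 0.0373 RPKM) stood seventh in KO, beside *Ovol1* (0.589 ± 0.0860), whose samples overlapped it. The lengths are those of all annotated exons joined, so a gene with several isoforms is understated on this scale.

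Within the grainyhead-like family, *Grhl3* and *Grhl1* together held most of the summed RPKM in both genotypes, and the share of *Grhl3* was lower in KO. The share of *Grhl3* was 52.0%, 56.0% and 53.3% in the WT samples, against 26.4%, 30.7% and 29.2% in the KO samples. *Grhl1* took 40.4% to 42.7% in WT and 51.7% to 55.5% in KO. The share of *Grhl2* was 4.56% ± 0.877 in WT and 17.0% ± 1.46 in KO (SD, n = 3 each), and the summed level of the 3 genes was 24.7 ± 6.17 RPKM in WT and 2.24 ± 0.0759 RPKM in KO. No share overlapped between the genotypes.

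**Figure D2:**
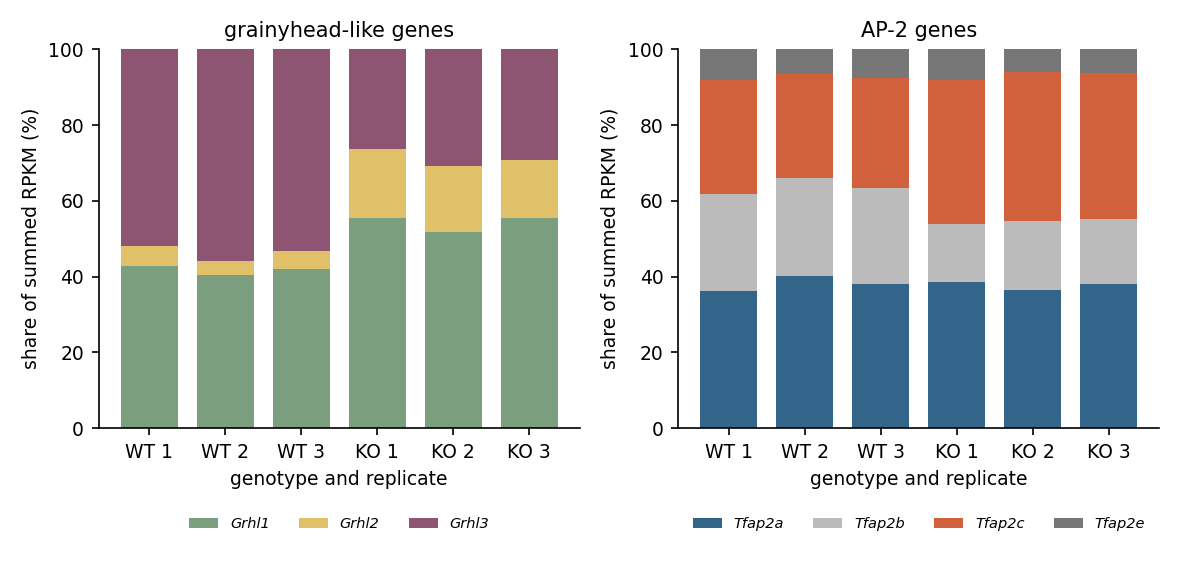
Stacked bars of the share of each gene in the summed RPKM of its family, in percent, for each of the 3 WT and 3 KO samples, with the grainyhead-like genes on the left and the tested AP-2 genes on the right. *Grhl3* is above 50% in WT and at 26.4% to 30.7% in KO, and the share of *Tfap2a* is close to even across the 6 samples.

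Among the WT samples the 9 genes kept a common order. Each of them was highest in replicate 2 and lowest in replicate 1 (9 of 9), an order that 25.5% of all genes tested and 57.0% of the genes called lower also had. The gap was smallest for *Grhl2*, at 9.18 and 9.20 CPM in replicates 1 and 3. The keratinocyte markers showed the same order in 15 of 18 genes and the melanocyte markers, of which 0 were called lower in KO, in 7 of 8. The summed level of the keratinocyte markers in replicate 2 was 27640 CPM, against 18844 CPM in replicate 1 and 20826 CPM in replicate 3. This order is a property of these libraries, and its cause was not tested.

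A list of 18 keratinocyte markers, drawn up with earlier results of these samples known, moved with the 9 genes. All 18 were called lower in KO, beside 8.39% of all genes tested, and none of them was at 0 in any sample. Their summed level was 18844 to 27640 CPM in WT and 1019 to 1161 CPM in KO, a ratio of 20.5, while the sum of the 9 factors was 379 to 525 CPM in WT and 149 to 155 CPM in KO, a ratio of 2.89. The part of these markers in the values of the 9 genes was not tested by a fit. Among the markers, 4 of the basal layer (*Krt5*, *Krt14*, *Krt15* and *Col17a1*) had log2 fold changes of -1.71 to -3.45, and 9 of the outer layers (*Krt1*, *Krt10*, *Krtdap*, *Lor*, *Sbsn*, *Cdsn*, *Ivl*, *Flg2* and *Calml3*) had -2.49 to -6.20, with a ratio of WT to KO in the summed level of 4.56 and 34.3. This division by layer was made after the values were seen. It left out *Dsg3* (-2.33), *Dsc3* (-3.94), *Pkp1* (-4.63), *Sfn* (-4.75) and *Lgals7* (-1.64). *Krt10*, a keratin of the spinous layer, fell from 5837 ± 1582 to 79.3 ± 23.9 CPM, *Ivl*, a cornified envelope protein, had a log2 fold change of -5.52, and *Lgals7*, the galectin of stratified epithelia, fell least of the 18, from 360 ± 27.7 to 116 ± 7.70 CPM (SD, n = 3 each).

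When the counts of each factor were set against the markers in the same library, the WT samples came close together. *Tfap2a* had 11.9, 11.9 and 12.1 counts per 10000 counts of the 18 markers in the WT samples, while its coefficient of variation in CPM was 20.2%. *Grhl1* had 25.1, 25.7 and 25.0, a coefficient of variation of 1.36%. *Grhl2* was the exception, with 4.87, 3.56 and 4.42 and a coefficient of variation of 15.6%, against 3.98% in CPM. In 8 of the 9 genes the ratio thus varied less between the WT samples than the CPM level did, for *Tfap2c* only slightly (9.67% against 10.3%). Between the KO samples this held only for *Grhl3* (2.21% against 5.79%) and *Klf4* (3.84% against 5.46%). For the other genes the ratio varied more in KO than CPM did, as for *Trp63* (8.29% against 2.90%) and *Grhl1* (12.3% against 5.63%).

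In KO, the same ratio separated the 9 genes. *Grhl3* had 15.4, 17.9 and 16.0 counts per 10000 marker counts in WT and 16.7, 16.5 and 16.0 in KO, so that the genotypes overlapped. *Ovol1* was at 12.8 ± 0.434 in WT and 18.9 ± 4.05 in KO, and *Grhl1* at 25.3 ± 0.343 and 61.7 ± 7.59 (SD, n = 3 each). The other 6 genes were 7.05-fold (*Grhl2*) to 10.7-fold (*Klf5*) higher in KO on this scale, with no overlap. *Trp63* had 20.5, 18.8 and 20.3 counts per 10000 in WT and 172, 145 and 162 in KO. The markers of the outer layers summed to 16274, 24481 and 18149 CPM in WT, out of 18844, 27640 and 20826 CPM for all 18. In KO they summed to 439, 653 and 624 CPM, out of 1019, 1161 and 1103 CPM. Their own sum was 34.3-fold lower in KO, so the makeup of this denominator differed between the genotypes.

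Against the basal keratins *Krt5* and *Krt14* alone, the 9 genes fell on either side of the WT level. *Trp63* had 286, 331 and 306 counts per 10000 counts of these keratins in WT and 458, 538 and 609 in KO, 1.74-fold higher in KO. *Klf5*, *Tfap2c*, *Klf4*, *Tfap2a* and *Grhl2* were also higher on this scale, from 1.52-fold (*Grhl2*) to 2.32-fold (*Klf5*). *Grhl3* was 4.65-fold lower, with 215, 316 and 241 in WT and 44.8, 60.9 and 60.2 in KO, *Ovol1* was 3.19-fold lower and *Grhl1* was 1.91-fold lower. None of these ratios overlapped between the genotypes, and they are descriptions of the same counts as above.

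**Figure D3:**
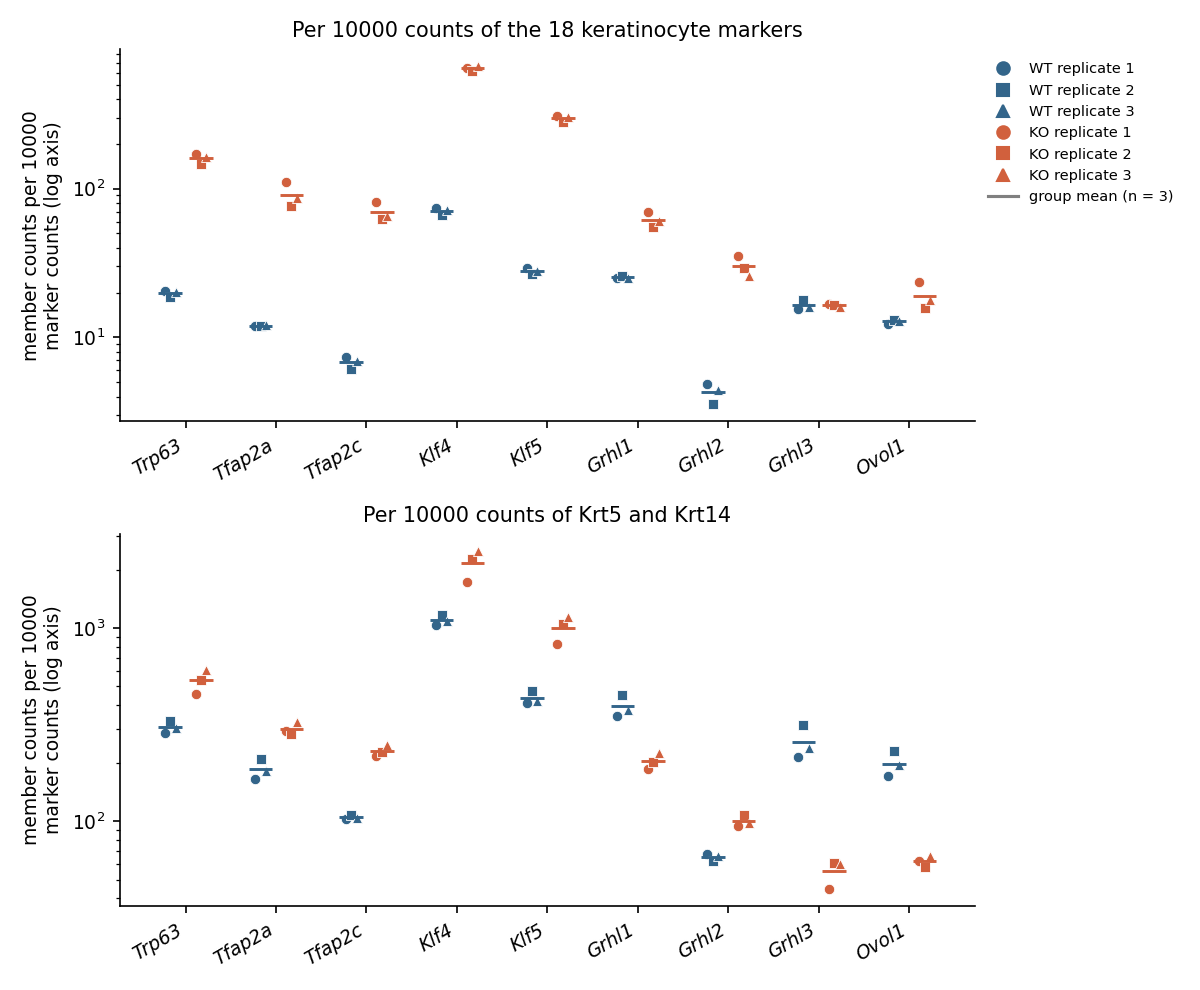
Counts of each of the 9 genes per 10000 counts of the 18 keratinocyte markers (top) and of *Krt5* and *Krt14* (bottom) in each sample, on log axes, with symbols as in the plot of CPM levels and bars at the means of 3 samples. On top, *Grhl3* is at 15.4 to 17.9 in WT and 16.0 to 16.7 in KO and the other 8 genes are higher in KO. On the bottom, *Grhl1*, *Grhl3* and *Ovol1* are lower in KO and the other 6 are higher.

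Genes that are known to answer to these factors were examined as lists, beside the 8.39% of all genes that were called lower. The lists were drawn up with earlier results of these samples known, and some genes stand in more than 1 list. Of 15 targets of p63, 10 fell, 0 rose and 5 were not called, with a median log2 fold change of -1.33. *Perp*, a desmosomal membrane protein, fell from 592 ± 87.2 to 28.1 ± 2.07 CPM (SD, n = 3 each; -4.40). *Krt5* and *Krt14*, the basal keratins that p63 controls directly, fell as well, with log2 fold changes of -1.96 and -2.59. The 5 not called were *Dst* (0.22), *Jag2* (-0.057), *Fras1* (-0.29), *Fgfr2* (-0.31) and *Itgb4* (-0.54), named after their values were seen, and their WT levels were 148, 54.4, 55.4, 95.1 and 33.3 CPM.

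Of 11 targets of the grainyhead-like factors, 10 fell, 0 rose and 1 was not called, with a median log2 fold change of -3.12. *Cldn4*, a claudin of tight junctions, was at 15.7, 24.9 and 18.2 CPM in WT and 0.661, 0.525 and 0.648 CPM in KO (-5.00, edgeR adjusted p = 1.27e-07). *Rab25*, a small GTPase of epithelial trafficking, fell from 58.9 ± 9.16 to 2.32 ± 0.293 CPM (-4.66; SD, n = 3 each). *Tgm1*, the transglutaminase that crosslinks the cornified envelope, fell from 73.3 ± 18.7 to 3.48 ± 0.132 CPM, and *Cdh1*, which encodes E-cadherin, from 77.8 ± 15.4 to 6.62 ± 0.815 CPM. *Arhgef19*, an exchange factor that acts with GRHL3 in cell polarity, was at 22.8 ± 1.23 and 16.2 ± 0.584 CPM, under the fold-change threshold.

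Other transcription regulators of epidermis and hair were lower in most cases as well. Of 27, 20 fell, 0 rose and 7 were not called, with a median log2 fold change of -1.33. *Elf5*, an ETS factor of epithelia, had the largest fall (-6.40, standard error 0.41), from 2.63, 5.03 and 3.31 CPM in WT to 0.0747, 0.0420 and 0.0103 CPM in KO, where replicate 3 was under the level that a count of 0 allows. *Zfp750*, a p63 target that drives terminal differentiation together with KLF4, fell from 60.2 ± 17.1 to 2.64 ± 0.404 CPM (-4.51, edgeR adjusted p = 2.97e-07). *Gata3*, a zinc finger factor of epidermis and hair, fell from 23.9 ± 4.43 to 7.84 ± 0.785 CPM (-1.61; SD, n = 3 each). Those not called were *Notch1*, *Casz1*, *Sox9*, *Satb1*, *Lhx2*, *Msx2* and *Vdr*, with log2 fold changes of -0.47 to 0.54.

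**Figure D4:**
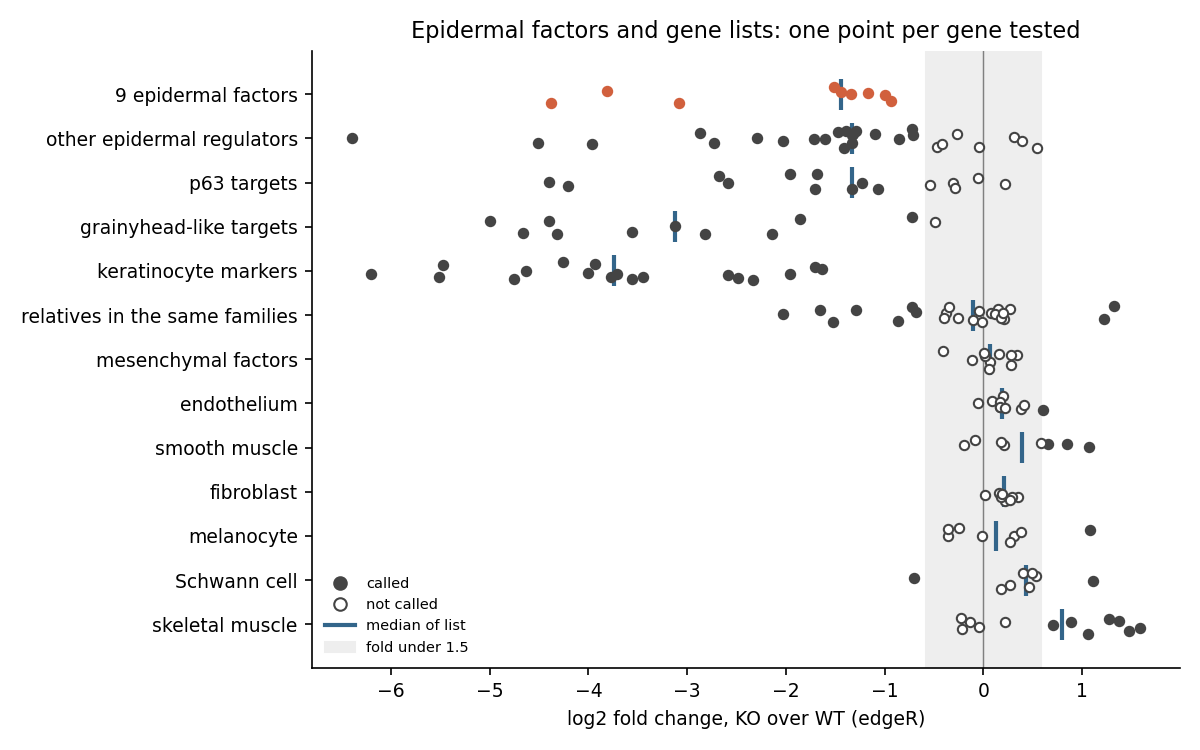
Log2 fold change of KO over WT from edgeR for each tested gene of the 9 factors (orange) and of 12 gene lists, with filled points for called genes, open points for those not called, a blue bar at the median of each list and a grey band where the fold change is under 1.5. The 9 factors have a median of -1.44, keratinocyte markers of -3.74 and skeletal muscle markers of 0.79.

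The relatives of the 9 genes in the same families were called in both directions. Of 25 relatives in the p53, CP2 and grainyhead, OVOL, KLF and AP-2 families, 23 were tested, 7 fell, 2 rose and 14 were not called, with a median log2 fold change of -0.10, beside 8.39% of all genes called lower. In 12 of the 23 every KO value was below every WT value, beside 28.5% of all genes. In 7 of the 23 every KO value was above every WT value, as in 6036 of the 22071 genes tested. The tested AP-2 and OVOL relatives were all called lower, and the 2 that rose were KLF genes. The OVOL relatives were at low levels, *Ovol2* at 0.828 ± 0.138 and 0.499 ± 0.0418 CPM and *Ovol3* at 0.389 ± 0.0475 and 0.213 ± 0.0572 CPM. With DESeq2, without WT replicate 1 or without KO replicate 2, 6 relatives were called lower. *Klf17* and *Tfap2d* had at most 1 count in any sample. Among the relatives that fell, *Tfap2b* (-2.03) and *Tfcp2l1*, a CP2 factor of ducts and stem cells (-1.66), had the largest falls, and *Trp73* (-1.29), *Tfap2e* (-1.53), *Ovol2* (-0.72), *Ovol3* (-0.86) and *Klf3* (-0.68) made up the rest. *Klf9* rose from 18.1 ± 0.627 to 45.3 ± 3.44 CPM (log2 fold change 1.33, edgeR adjusted p = 2.62e-07) and *Klf15* from 5.31 ± 0.247 to 12.4 ± 1.43 CPM (1.22, edgeR adjusted p = 5.90e-06; SD, n = 3 each), where 8.31% of all genes were called higher. Both are targets of the glucocorticoid receptor, and KLF15 is abundant in skeletal muscle. *Klf2*, a KLF of endothelium, overlapped between the genotypes (28.1 to 33.7 CPM and 27.6 to 34.2 CPM), and *Trp53* was at 80.2 to 94.4 and 72.0 to 75.6 CPM, under the fold-change threshold.

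The 10 mesenchymal genes listed, which stand opposite the epithelial programme, were examined as well, among them the repressors that OVOL and grainyhead-like factors keep in check. None of the 10 was called in either direction by edgeR, and DESeq2 and limma-voom called 0 lower as well. At an unadjusted p under 0.05, 2 were lower and 4 higher, and the median log2 fold change was 0.063. At an adjusted p under 0.05 without a fold-change threshold 1 was lower, *Cdh2*, at 68.9 ± 3.20 and 52.1 ± 0.731 CPM, and 4 were higher, *Vim*, *Zeb2*, *Fn1* and *Prrx1*, with log2 fold changes of 0.16 to 0.34. The sum of the 10 was 3762 to 3911 CPM over the WT samples and 4572 to 4671 CPM over the KO samples, with no overlap. *Zeb1* averaged 141 ± 9.01 CPM over the WT samples and 148 ± 3.30 CPM over the KO samples, and *Zeb2* at 141 ± 4.64 and 172 ± 5.24 CPM (SD, n = 3 each).

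Markers of other cell types, some of which can make KLF4, KLF5 or AP-2α, were counted beside the shares of all genes called. Those shares were 8.39% lower and 8.31% higher, and in lists this short 0 or 1 calls for lower genes is near the first. Of 10 endothelial markers 0 fell and 1, *Vwf*, rose (0.61), and their sum was 775 to 804 CPM in WT and 899 to 946 CPM in KO. Of 8 smooth muscle markers 0 fell and 3 rose, *Myh11* (1.07), *Actg2* (0.85) and *Synpo2* (0.66), and their sum was 825 to 838 CPM in WT and 907 to 971 CPM in KO. *Synpo2* is the host gene of *SYISL*, and it went from 136 ± 4.21 to 214 ± 18.9 CPM within that sum. *Acta2*, not called, was lower in every KO sample than in any WT sample, at 423 ± 4.57 and 370 ± 20.1 CPM (-0.19). Also not called were *Cnn1* (-0.082), *Lmod1* (0.58), *Tagln* (0.21) and *Smtn* (0.18). Of 8 melanocyte markers 0 fell and *Tyrp1* rose (1.08), with sums of 75.6 to 94.5 and 95.9 to 108 CPM. The markers not called went both ways, with *Kit* (0.38), *Mitf* (0.31) and *Sox10* (0.27) above 0. *Pmel* (-0.36), *Tyr* (-0.36), *Dct* (-0.25) and *Mlana* (-0.020) were below 0. *Kit*, at 36.2 ± 4.47 and 47.2 ± 2.99 CPM, was the largest part of the sum. Of 8 Schwann cell markers *Erbb3* fell (-0.70) and 1 rose, with sums of 453 to 463 and 538 to 576 CPM. The 8 fibroblast markers had 0 calls, with sums of 40592 to 43632 CPM in WT and 48649 to 50613 CPM in KO. For the counts of 0 fallen genes, edgeR at an unadjusted p under 0.05 gave 0 lower endothelial, 1 smooth muscle, 2 melanocyte, 0 fibroblast and 3 skeletal muscle markers, and DESeq2 and limma-voom called 0 lower in each of these lists. At that unadjusted p, 9 endothelial, 5 smooth muscle, 4 melanocyte, 6 Schwann cell, 6 fibroblast and 8 skeletal muscle markers were higher. In skeletal muscle 7 of 12 markers rose and 0 fell, the largest rises being those of *Myh8*, the perinatal myosin (1.59), and *Acta1*, skeletal α-actin (1.47). The others were not called. Among them *Myog* (-0.22), *Myod1* (-0.22) and *Pax7* (-0.13) were lower in every KO sample than in any WT sample. *Mymk* was at 0.22 and *Myh3* at -0.040.

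The genes whose level followed each factor most closely over the 6 samples were sought among genes with a mean of at least 1 CPM. The 3 highest Pearson correlations of log2 CPM for each factor were between 0.9989 and 0.99996 over 6 samples, and the points of all of them share the split by genotype and the common order of the WT samples. Nearest to *Trp63* were *Arhgef5*, *Frrs1* and *Tmem229b*, and nearest to *Tfap2a* were *Hsd17b7*, *Psd4* and *Midn*. *Tfap2c* was followed by *Plekhh1*, *Wnk4* and *Dlg2*, and *Klf4* by *Sh3rf2*, *Zfp772* and *Cited4*. For *Klf5* they were its relative *Klf3*, *2310043M15Rik* and *Tpp2*. For *Grhl1* they were *Esrp1*, *Lad1* and *Klk13*, for *Grhl2* *Gm6166* and *Eif5a* were among them, and for *Grhl3* *Skint2*, *Spint1* and *Sytl1*. *Ovol1* was followed by *Klc3*, *Fut1* and *Wwc1*. *Esrp1*, a splicing regulator of epithelia and one of the grainyhead-like targets above, averaged 66.8 CPM over the WT samples and 9.44 CPM over the KO samples, close to the 56.8 and 6.72 CPM of *Grhl1*. *Skint2*, of a gene family of skin and thymus epithelium, stood at 5.95 and 0.258 CPM. A high correlation does not require a difference of like size. *Tpp2*, among the nearest to *Klf5*, was at 110 and 98.9 CPM. *Frrs1*, *Eif5a* and *Midn* had log2 fold changes of only -0.51, -0.48 and -0.46.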

How the data were processed

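RNA-seq counts of leg muscle from 3 WT and 3 *SYISL* KO mouse fetuses at embryonic day 18.5 were used. Per the methods and processing notes, the authors trimmed 150 bp paired-end reads with Trim Galore 0.6.6, mapped them to mm10 with HISAT2 2.2.1 and counted them with featureCounts 2.0.1. The deposited tables hold raw, unnormalized counts for each gene. The annotation, strandedness and the counting of reads or pairs are not given in the sources used here, so overlapping genes and close paralogs are uncertain. Symbols, positions and exon lengths come from GENCODE release M21 on the same assembly (55227 of 56262 gene IDs found), promoter windows from RefSeq.

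Counts were tested in R 4.3.3 with edgeR 4.0.16 (filterByExpr, TMM, quasi-likelihood F-test, genotype alone), over the whole table of 22071 genes with Benjamini-Hochberg adjustment. Levels are CPM of TMM-scaled totals and the standard error is the log2 fold change over the root of F. The members and lists were chosen with earlier results of these data known. Genes named are the 9, the 2 largest falls and rises among called genes of each list, called genes that go against their list, and the 3 genes most alike to each member; others were picked after their values were seen. Some genes that meet this rule are not reported here. Same-numbered WT and KO samples deviated with correlations of -0.20, -0.13 and 0.047 and were not paired. The alternatives were RLE or upper-quartile factors, library size, DESeq2 1.42.0, limma-voom (limma 3.58.1), other filters and fold thresholds, a replicate block, each sample left out, and *Krt5* and *Krt14* as denominator. The fits were tested on simulated data first.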

Additional observations from a re-analysis of the deposited data

How the results depend on the processing

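The 9 factors were all called lower under each alternative except a fold change over 2, which left 7, without *Klf5* (-0.93) and *Tfap2c* (-0.99). The member values kept their sign in all 14 refits, with *Klf5* between -1.01 and -0.80 and *Grhl3* between -4.53 and -4.12, the smallest differences coming without WT replicate 2 for 8 of the 9 and without KO replicate 3 for *Grhl2*. Counts of calls moved by over 1.5 times only with the fold-change threshold. Among all genes, a fold change over 2 left 774 higher (1835 in the main test), and no threshold gave 4838 higher and 5098 lower (1852 in the main test). Among the lists, a fold change over 2 left 4 relatives lower and 0 Schwann cell markers, and no threshold gave 11 relatives, 1 mesenchymal gene, 2 muscle markers and 1 smooth muscle marker lower. With a replicate block 1744 genes were called higher, 1777 lower and 9 of the 9 factors lower, and it changed no other call by over 1.5 times. Another denominator turned the ratio to keratinocyte markers of *Grhl1* (log2 1.29 with 18 markers, -0.93 with *Krt5* and *Krt14*) and *Ovol1* (0.57 and -1.68). With 3 samples a group, an exact permutation test of a single gene cannot give a p under 0.1.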
